A study of Mus musculus with 12 samples.

Results

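Genes of peroxisomal and mitochondrial fatty acid oxidation were examined by RNA-Seq in the brain cortex of aged E4FAD mice given the omega-6 docosapentaenoic acid DPAn-6 or vehicle (CTRL). The set holds 40 genes of the 50563 in the count table, taken by gene symbol: 16 genes of peroxisomal fatty acid oxidation, 21 of the mitochondrial pathway and 3 related genes whose products work in the cytosol or the endoplasmic reticulum. The 12 mice were all E4FAD, with the genotype APOE4+/+, 5FAD-/+, so that both groups carry human APOE4 in place of the mouse gene and familial Alzheimer's disease transgenes, and no mouse without the transgenes was compared. The 5 DPAn-6 mice, of which 2 were 12 months and 3 were 14 months old, received 700 mg/kg body weight of DPAn-6 ethyl ester by daily gavage for 3 weeks. The 7 CTRL mice, of which 2 were 12 months and 5 were 14 months old, received the vehicle, which holds the antioxidants alpha-tocopherol and palmitoyl ascorbic acid. By the study's methods, both groups received these antioxidants. The study's methods give 4 females and 3 males in CTRL and 3 females and 2 males in DPAn-6, and do not tie a sex to each mouse. Each mouse gave 1 library.

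Fatty acids are broken down by beta-oxidation, in which each round removes an acetyl unit from the acyl chain. Peroxisomes take up very-long-chain, branched and highly polyunsaturated acyl-CoA through ABCD transporters and shorten it in 3 enzyme steps, by an acyl-CoA oxidase, a bifunctional enzyme and a thiolase. The shortened chains leave as carnitine esters, and mitochondria take up acyl chains through the carnitine shuttle and oxidize them with chain-length-specific dehydrogenases that pass their electrons to the electron transfer flavoprotein. Polyunsaturated chains such as DPAn-6 also need auxiliary reductases and isomerases, and a round of peroxisomal oxidation is part of the synthesis of the longest polyunsaturated fatty acids themselves. In the brain, astrocytes are known as the main site of fatty acid oxidation, and many of these genes are known targets of the nuclear receptor PPARalpha, which binds fatty acids.

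Total counts were 15339098 to 19500154 in CTRL (median 17449553) and 15208803 to 26520251 in DPAn-6 (median 18400132). Levels are given as log2 CPM, the log2 of counts scaled to the library's total (CPM), with 0.5 added to each count. The members took 0.129% to 0.142% of all counts in 11 libraries and 0.114% in CTRL replicate 3. This library stood apart: it had the lowest log2 CPM of the 12 mice for 25 of the 39 members that passed the filter on low counts, against 35.1% of the 15688 genes tested, and the highest for 5 of the 39, against 26.7% of genes tested. Its members lay at a median of -0.31 log2 units from the mean of the other CTRL mice, where all genes tested lay at -0.07, genes with transcripts under 1500 bases at -0.42 and genes with transcripts over 4000 bases at 0.12. The members' transcripts had a median of 2241 bases (n = 39), against 3122 bases for the genes tested. Across the 39 members, the deviation of CTRL replicate 3 had a Spearman correlation of 0.599 with transcript length and of -0.788 with GC content, all points coming from the same library. The median SD of the members between CTRL mice was 0.21 log2 units, and 0.139 without CTRL replicate 3 (0.249 and 0.159 for all genes tested). Values without this library are given where leaving it out changed a call or a direction, or moved a count of calls by over 1.5 times. Summed levels are given with all mice only.

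**Figure D1:**
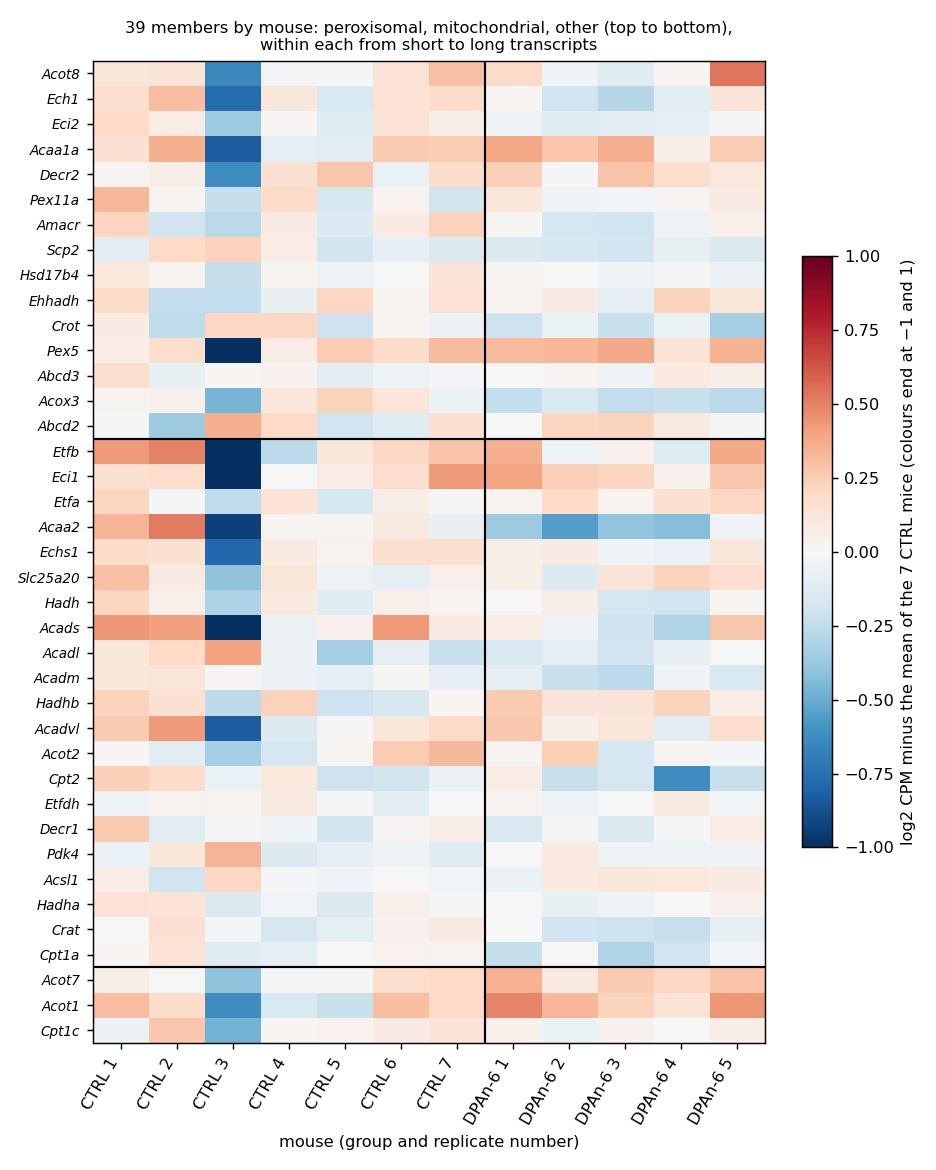
Colour map of log2 CPM minus the mean of the 7 CTRL mice, with 1 row per member (39 tested) and 1 column per mouse, ordered within each compartment by transcript length. The column of CTRL replicate 3 is blue in the short peroxisomal and mitochondrial genes, such as Etfb, Eci1 and Acads, and the DPAn-6 columns hold mostly pale colours.

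The level of each gene was compared between genes as CPM per kilobase of its longest coding transcript. The highest was Acot7, the cytosolic acyl-CoA thioesterase of neurons, at 125 ± 16.0 CPM per kilobase in CTRL (SD, n = 7) and 146 ± 9.72 in DPAn-6 (SD, n = 5). Next came Cpt1c, the neuronal member of the carnitine palmitoyltransferase family, at 35.9 ± 5.33 and 36.0 ± 1.33, and Hsd17b4, the D-bifunctional protein of peroxisomes, at 24.6 ± 2.01 and 24.3 ± 0.601. The fourth, the mitochondrial hydratase gene Echs1, at 24.5 ± 4.76 and 24.6 ± 1.32, did not differ from Hsd17b4 beyond the spread between mice. Thus the pair at the top of the order are known as neuronal genes and belong to neither organelle's pathway.

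At the low end stood Acaa1b, the B form of the peroxisomal thiolase, at 0.183 ± 0.104 CPM per kilobase in CTRL and 0.199 ± 0.0923 in DPAn-6, with 2 to 12 counts per mouse. It was the member that did not pass the filter on low counts. Its close copy Acaa1a stood at 19.8 ± 4.72 and 23.1 ± 2.02, and reads that fit both copies could have been lost or split by the counting. Ehhadh, the L-bifunctional enzyme, was at 1.18 ± 0.158 and 1.24 ± 0.0995, so that its level in CTRL was far below that of the D-bifunctional gene Hsd17b4. Acot1, a cytosolic thioesterase, was at 1.32 ± 0.291 and 1.63 ± 0.168, and its mitochondrial copy Acot2 was at 2.08 ± 0.339 and 2.10 ± 0.213. The values of Acot1 and Acot2 are uncertain in the same way as those of the thiolase pair.

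Genes whose products form 1 complex differed in level. Hadha, the alpha subunit of the mitochondrial trifunctional protein, was at 19.3 ± 1.56 CPM per kilobase in CTRL, and Hadhb, its beta subunit, was at 3.39 ± 0.493 (SD, n = 7 each). The 2 genes lie head to head on chromosome 5 of GRCm38, Hadha from 30118304 to 30155162 on the minus strand and Hadhb from 30155248 to 30184593 on the plus strand. Of the electron transfer flavoprotein, Etfa was at 12.9 ± 1.43 and Etfb at 3.79 ± 1.23. The annotation places another gene of the same strand, Gm45233, over 53.0% of the exon bases of Etfb, where reads may not have been assigned. Acadvl shares 42.9% of its exon bases with Dvl2 of the opposite strand, and which strand the authors counted is not stated, so reads of this pair may be mixed. Between CTRL mice, the largest SD of log2 CPM were those of Acads (0.629), Etfb (0.609) and Pex5 (0.482), which came to 0.225, 0.272 and 0.098 without CTRL replicate 3.

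**Figure D2:**
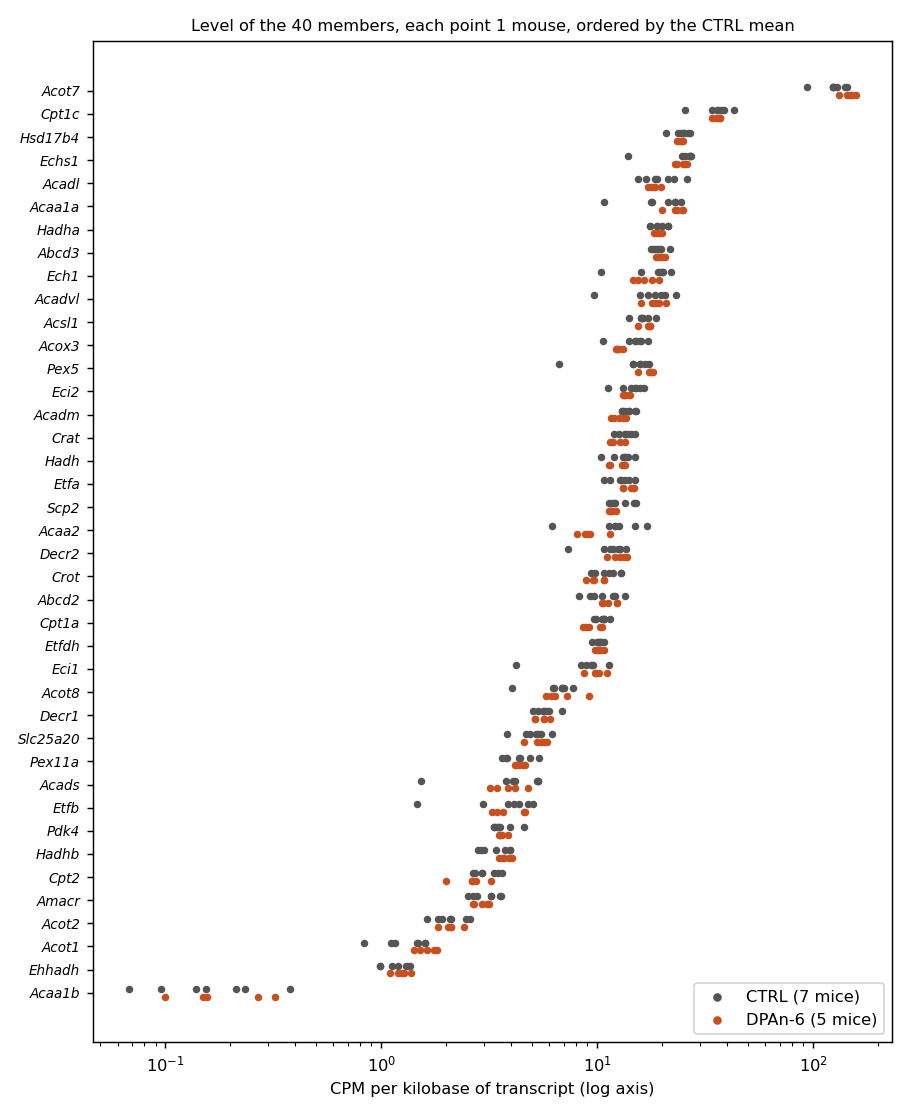
CPM per kilobase of transcript (log axis) of the 40 members in each of the 7 CTRL mice and 5 DPAn-6 mice, ordered by the CTRL mean. Acot7 stands highest at 125 in CTRL and Acaa1b lowest at 0.183, and the points of the groups overlap in each row.

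Because PPARalpha is a candidate regulator of this set, the bases before the start of transcription were searched for the hexamer to which PPARalpha and the estrogen-related receptors bind. RefSeq windows of 250 bases (GRCm38.p6) were found for 34 of the 40 members, and 3 are shown, those of the member with the lowest p (Acox3) and of the carnitine shuttle and dehydrogenase genes Cpt1a and Acadm, which hold a match. Capitals mark the hexamer AGGTCA on either strand, read as TGACCT on the opposite one. The windows are chr5:35582784-35583033 (plus strand) for Acox3, chr19:3323051-3323300 (plus strand) for Cpt1a and chr3:153944644-153944893 (minus strand) for Acadm, each printed 5′ to 3′ up to the base before the RefSeq start.
Acox3: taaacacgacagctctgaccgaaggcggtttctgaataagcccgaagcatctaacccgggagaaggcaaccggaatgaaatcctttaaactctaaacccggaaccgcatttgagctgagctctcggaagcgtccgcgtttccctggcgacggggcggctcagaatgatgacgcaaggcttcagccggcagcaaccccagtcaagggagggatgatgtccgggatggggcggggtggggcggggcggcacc
Cpt1a: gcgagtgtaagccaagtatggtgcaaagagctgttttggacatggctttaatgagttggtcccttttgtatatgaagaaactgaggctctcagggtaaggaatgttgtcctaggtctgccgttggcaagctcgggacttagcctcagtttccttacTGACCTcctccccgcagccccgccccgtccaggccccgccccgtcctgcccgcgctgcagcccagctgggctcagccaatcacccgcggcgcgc
Acadm: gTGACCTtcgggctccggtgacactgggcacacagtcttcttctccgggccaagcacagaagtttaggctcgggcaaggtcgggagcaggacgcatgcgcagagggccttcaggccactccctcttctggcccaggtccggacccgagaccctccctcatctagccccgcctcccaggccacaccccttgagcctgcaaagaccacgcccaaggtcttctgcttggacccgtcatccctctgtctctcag
The hexamer was found in 6 of the 38 windows of members (15.8%), those of Acadm, Acadvl, Cpt1a, Cpt1c, Echs1 and Scp2, against 14.0% of all 32851 windows and 10.7% of the 14907 windows of genes tested. The direct repeat AGGTCANAGGTCA and the longer site TNAAGGTCA, both of which contain the hexamer, were in none of the members' windows, and in 0.0335% and 1.14% of all windows. The GC box GGGCGG was in 65.8% of the members' windows, against 55.3% of the windows of genes tested. A match is a description of the sequence and shows no binding.

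DPAn-6 was compared with CTRL to ask whether a gavage with a polyunsaturated fatty acid goes with other levels of the genes that oxidize such fatty acids. No member passed an adjusted p of 0.05 in edgeR's quasi-likelihood test (0 of 39, where 1.55% of the 15688 genes tested passed), and none passed by DESeq2 or limma-voom. At an unadjusted p below 0.05, edgeR gave 7 of the 39 members, against 14.5% of all genes tested: 6 were lower in DPAn-6 (9.02% of genes tested) and 1 was higher (5.51%). DESeq2 gave 7 and limma-voom 5. The 6 members with the lower level were Acox3, Crot, Cpt1a, Crat, Acadm and Acaa2, and the higher one was Acot7. The groups overlapped in each of the 39 members (3.22% of genes tested did not overlap). By the exact permutation test of mean log2 CPM, 4 of 39 members had a p below 0.05, against 15.8% of genes tested.

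The differences were small. Of the 39 members, 38 had a log2 difference between -0.3 and 0.3, and the median was -0.02, against -0.005 for all genes tested. The 15 peroxisomal members tested had a median of -0.003, with 7 higher and 8 lower, and the 21 mitochondrial members had a median of -0.04, with 7 higher and 14 lower. The summed level of the peroxisomal members was 502 ± 34.9 CPM in CTRL (SD, n = 7) and 504 ± 4.05 CPM in DPAn-6 (SD, n = 5), and that of the mitochondrial members was 550 ± 38.4 and 535 ± 16.6 CPM. With all mice, neither sum differed by more than its SD between CTRL mice. The lowest peroxisomal sum in CTRL, 430 CPM, was that of CTRL replicate 3. The peroxisomal medians had the opposite order to the means, with 509 CPM in CTRL and 504 CPM in DPAn-6. Mitochondrial medians were 554 and 534 CPM. Sums without CTRL replicate 3 are not given. In counts simulated from these libraries, edgeR recovered 89% of genes changed by 1 and 47% of genes changed by 0.5 on the log2 scale among 15555 genes. Changes of 0.5 were thus often missed, and changes below 0.5 were not simulated. The simulation held 100 changed genes of each size and no shift of a whole library like that of CTRL replicate 3, so recovery in the real data may differ.

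Without CTRL replicate 3, 2 members passed the adjusted p of 0.05, Acox3 and Acaa2, both lower in DPAn-6, where 6.1% of the 15616 genes tested passed. The count at an unadjusted p was then 10 (9 lower), of which 6 were among the 7 of all mice, against 23.1% of genes tested. The members' median was -0.06, against 0.0002 for all genes tested. The adjusted count was 0 in the fits that left out any other mouse. The unadjusted count was 4 without CTRL replicate 1, 3 without CTRL replicate 2, and 4, 4, 2 and 3 without DPAn-6 replicates 1, 2, 3 and 4. Within the 14-month mice (5 CTRL, 3 DPAn-6), 0 members passed the adjusted p in edgeR and 2 had an unadjusted p below 0.05, Acot1 and Acot7, both higher. In that smaller fit the log2 differences of Acox3, Acadm and Crot were -0.27 (SE 0.14), -0.17 (SE 0.10) and -0.23 (SE 0.15), while those of Cpt1a and Crat were -0.10 (SE 0.10) each and that of Acaa2 was -0.33 (SE 0.25). The 12-month mice, 2 in each group, were not fitted alone. For the fits that left out another mouse and for the 14-month fit, the shares of all genes tested are not given. The members' counts in those fits can therefore not be set against those of all genes.

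**Figure D3:**
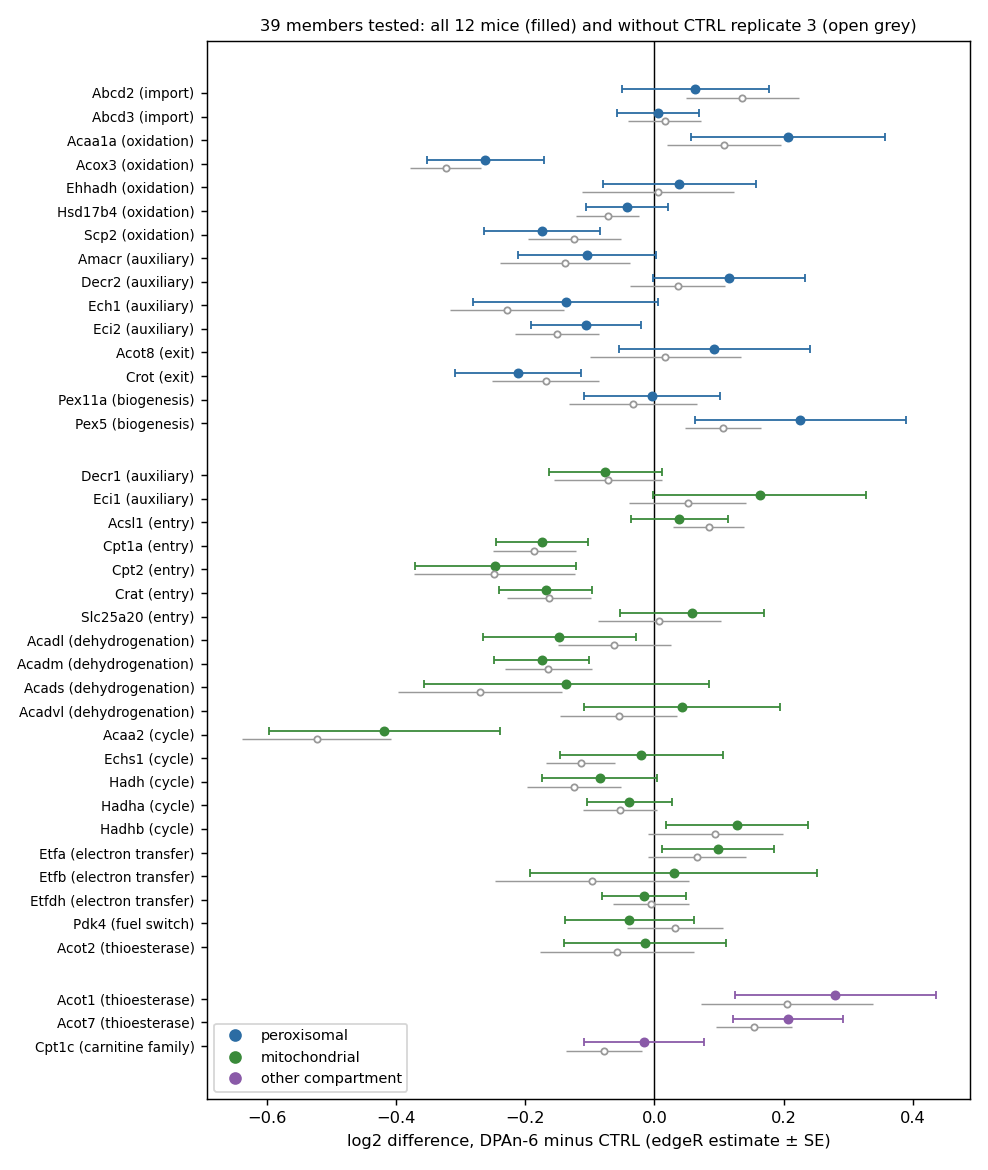
edgeR log2 difference (DPAn-6 minus CTRL) ± SE of the 39 members tested, by compartment and step, from all 12 mice (filled) and without CTRL replicate 3 (open grey). Most points lie within 0.3 of 0, Acaa2 lies lowest at -0.42, and the SE narrows without CTRL replicate 3 in genes such as Pex5 and Echs1.

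Among the peroxisomal genes, the import genes were near 0. Abcd2, the transporter of very-long-chain and polyunsaturated acyl-CoA, had a log2 difference of 0.06 (SE 0.11) and Abcd3, the most abundant ABC transporter of the peroxisomal membrane, of 0.01 (SE 0.06). Acox3, the acyl-CoA oxidase of branched chains (ENSMUSG00000029098; GRCm38 chromosome 5, 35583040 to 35615352), had the lowest p of all members. Its log2 CPM in DPAn-6 mice were 5.62, 5.72, 5.62, 5.64 and 5.598, and in CTRL the lowest was 5.40, the median 5.91 and the highest 6.09. All 5 DPAn-6 mice lay below 6 of the 7 CTRL mice and above the remaining one, CTRL replicate 3. This gave a log2 difference of -0.26 (SE 0.09, edgeR p = 0.0112, adjusted p = 0.178), a change of -16.6%, and the exact permutation p was 0.0556. Without CTRL replicate 3, the other 6 CTRL mice ranged from 5.81 to 6.09 and did not overlap with DPAn-6, as in 5.27% of genes tested. Its log2 difference was then -0.32 (SE 0.05, edgeR adjusted p = 0.00335).

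The later steps of the peroxisomal round gave no call. The bifunctional genes Hsd17b4 and Ehhadh had log2 differences of -0.04 (SE 0.06) and 0.04 (SE 0.12). The thiolase gene Acaa1a had 0.21 (SE 0.15), and Scp2, whose products are a thiolase and a lipid carrier, had -0.17 (SE 0.09, edgeR adjusted p = 0.400), with all 5 DPAn-6 mice below the CTRL mean. The auxiliary genes ranged from -0.14 (SE 0.14) for the isomerase gene Ech1 to 0.11 (SE 0.12) for the reductase gene Decr2. Ech1 and the isomerase gene Eci2 had an unadjusted p of 0.0197 and 0.0328 without CTRL replicate 3 (log2 difference -0.23 and -0.15, edgeR adjusted p = 0.136 and 0.175).

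Crot, the carnitine octanoyltransferase through which shortened chains leave the peroxisome, had log2 CPM of 4.86, 5.00, 4.84, 5.00 and 4.74 in DPAn-6 mice and of 4.82 (lowest), 5.09 (median) and 5.27 (highest) in CTRL. All 5 DPAn-6 mice lay below the CTRL mean, and 1 lay below every CTRL mouse. The log2 difference was -0.21 (SE 0.10, edgeR p = 0.0468, adjusted p = 0.334, exact permutation p = 0.0922). Crot was the member whose unadjusted call was lost without CTRL replicate 3 (-0.17, SE 0.08, edgeR adjusted p = 0.238), it was not called by limma-voom, and it had an unadjusted p below 0.05 in 8 of 25 alternative fits. The thioesterase gene Acot8, the other exit step, had 0.09 (SE 0.15). Of the biogenesis genes, Pex5, the import receptor for peroxisomal enzymes, had 0.23 (SE 0.16), and 0.11 (SE 0.06) without CTRL replicate 3, whose value of 4.38 lay below the other CTRL mice. Pex11a, which elongates peroxisomes and is a known PPARalpha target, had -0.003 (SE 0.11).

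In the mitochondrial pathway, 2 of the 4 lower members were genes of carnitine transferases, Cpt1a of the carnitine shuttle and Crat. Cpt1a, the carnitine palmitoyltransferase of the outer membrane that controls entry (ENSMUSG00000024900; chromosome 19, 3322334 to 3385733), had log2 CPM of 5.26, 5.50, 5.21, 5.30 and 5.47 in DPAn-6 mice and of 5.38, 5.52 and 5.64 (lowest, median and highest) in CTRL. Of the treated mice, 3 were lower than the lowest CTRL mouse and 2 were inside the CTRL range. The log2 difference was -0.17 (SE 0.07, edgeR p = 0.0277, adjusted p = 0.270, exact permutation p = 0.0379). Crat, the carnitine acetyltransferase that exports acetyl units, had 5.84, 5.64, 5.62, 5.604 and 5.74 against 5.67, 5.84 and 5.99 in CTRL. Again 3 treated mice were lower than the lowest CTRL mouse. Its log2 difference was -0.17 (SE 0.07, edgeR p = 0.0323, adjusted p = 0.289, exact permutation p = 0.0429).

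Cpt2, the partner of Cpt1a at the inner membrane, had only 72 to 166 counts per mouse. Its log2 CPM were 2.94, 2.64, 2.70, 2.25 and 2.65 in DPAn-6 mice and 2.66, 2.81 and 3.11 (lowest, median and highest) in CTRL. The value of DPAn-6 replicate 4 was the lowest of all mice. The log2 difference of -0.25 (SE 0.13) did not pass (edgeR p = 0.0682, adjusted p = 0.389, exact permutation p = 0.0795). The other entry genes were near 0, with 0.04 (SE 0.07) for the long-chain acyl-CoA synthetase gene Acsl1 and 0.06 (SE 0.11) for the carnitine-acylcarnitine carrier gene Slc25a20.

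Among the dehydrogenases, Acadm, which acts on medium chains (ENSMUSG00000062908; chromosome 3, 153922357 to 153944632), had log2 CPM of 4.75, 4.62, 4.57, 4.80 and 4.69 in DPAn-6 mice and of 4.73, 4.85 and 4.96 (lowest, median and highest) in CTRL. All 5 DPAn-6 mice lay below the CTRL mean and 3 below every CTRL mouse. The log2 difference was -0.17 (SE 0.07, edgeR p = 0.0312, adjusted p = 0.284, exact permutation p = 0.0240), and -0.16 (SE 0.07) without CTRL replicate 3. The long-chain gene Acadl had -0.15 (SE 0.12), the short-chain gene Acads -0.14 (SE 0.22) and the very-long-chain gene Acadvl 0.04 (SE 0.15), which was -0.06 (SE 0.09) without CTRL replicate 3. The promoter windows printed above hold the hexamer for both Cpt1a and Acadm and not for Acox3. Of the other lower members, Crot had a window without a match, and no window was found for Crat and Acaa2. The hexamer was thus not shared by all lower members.

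Acaa2, the mitochondrial thiolase that closes the cycle (ENSMUSG00000036880), had the lowest log2 difference of all members. Its log2 CPM were 3.81, 3.61, 3.78, 3.74 and 4.13 in DPAn-6 mice and 3.24, 4.20 and 4.69 (lowest, median and highest) in CTRL, with 144 to 464 counts per mouse. The CTRL value of 3.24 was that of replicate 3, and all 5 DPAn-6 mice lay below the CTRL mean. The log2 difference was -0.42 (SE 0.18, edgeR p = 0.0337, adjusted p = 0.294, exact permutation p = 0.145). Without CTRL replicate 3, the other CTRL mice ranged from 4.095 to 4.69, 4 of 5 DPAn-6 mice lay below every one of them, and the log2 difference was -0.52 (SE 0.12, edgeR adjusted p = 0.0146).

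The other genes of the cycle were near 0, from -0.08 (SE 0.09) for the dehydrogenase gene Hadh to 0.13 (SE 0.11) for Hadhb. Without CTRL replicate 3, the hydratase gene Echs1 had -0.11 (SE 0.05) and the dehydrogenase gene Acads -0.27 (SE 0.13), each with an edgeR adjusted p of 0.212. The 3 electron transfer genes Etfa, Etfb and Etfdh, which hand electrons to the respiratory chain, had 0.10 (SE 0.09), 0.03 (SE 0.22) and -0.02 (SE 0.07), and Etfb had -0.10 (SE 0.15) without CTRL replicate 3. Pdk4, the kinase that turns mitochondria from pyruvate to fatty acids and is a known PPARalpha target, had -0.04 (SE 0.10), and its log2 CPM were 3.67, 3.76, 3.61, 3.62 and 3.63 in DPAn-6 mice against 3.53 (lowest), 3.60 (median) and 4.0 (highest) in CTRL. Those values of Pdk4 lay within the CTRL range, and its log2 difference was 0.03 (SE 0.07) without CTRL replicate 3. The auxiliary genes Decr1 and Eci1 had -0.08 (SE 0.09) and 0.16 (SE 0.16).

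Outside the 2 organelles, the cytosolic thioesterase gene Acot7 (ENSMUSG00000028937; chromosome 4, 152178134 to 152271855) was the member with the higher level. Its log2 CPM were 7.89, 7.63, 7.80, 7.751 and 7.83 in DPAn-6 mice and 7.14, 7.55 and 7.745 (lowest, median and highest) in CTRL, and 4 of 5 DPAn-6 mice lay above every CTRL mouse. On the log2 scale it was higher by 0.21 (SE 0.08, edgeR p = 0.0276, adjusted p = 0.269, exact permutation p = 0.0177), and 0.15 (SE 0.06, edgeR adjusted p = 0.129) without CTRL replicate 3, whose value was the lowest. Acot1 had log2 CPM of 2.06, 1.90, 1.78, 1.70 and 2.01 in DPAn-6 mice and of 0.94, 1.75 and 1.87 in CTRL, with a log2 difference of 0.28 (SE 0.16, edgeR adjusted p = 0.440), while its copy Acot2 had -0.01 (SE 0.13). Cpt1c had -0.02 (SE 0.09).

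**Figure D4:**
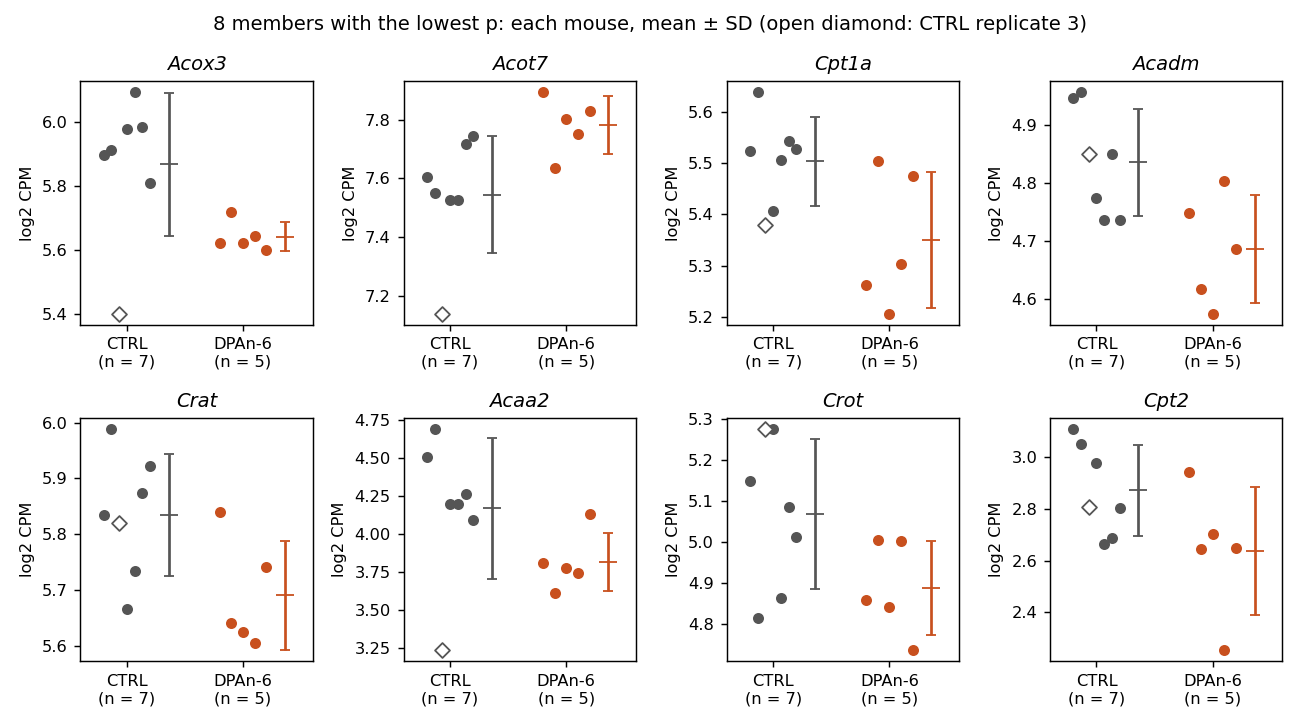
Log2 CPM of the 8 members with the lowest edgeR p in each mouse, with the mean ± SD of each group beside the points and CTRL replicate 3 as an open diamond. In Acox3, all 5 DPAn-6 mice lie between 5.598 and 5.72, below the 6 other CTRL mice and above the diamond at 5.40.

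Other genes of the same pathways, from lists of other peroxisomal, other oxidation and other PPARalpha target genes, were tested beside the members. In this fit, 1.55% of all genes tested passed the adjusted p in edgeR and 14.5% had an unadjusted p below 0.05. Of 33 other peroxisomal genes tested, 0 passed the adjusted p in edgeR, 1 had an unadjusted p below 0.05 and the median log2 difference was 0.04 (20 higher, 13 lower). The lowest p were those of Lonp2, a protease of the peroxisomal matrix (0.12, SE 0.05), and the thioesterase gene Acot4 (-0.41, SE 0.19, edgeR adjusted p = 0.348). Of 26 other fatty acid oxidation genes, 0 passed, 3 had an unadjusted p below 0.05, all lower, and the median was -0.007. The lowest p were those of Acacb, whose product makes the malonyl-CoA that inhibits Cpt1 at mitochondria (-0.57, SE 0.16, edgeR adjusted p = 0.0980), and of the mitochondrial acetyl-CoA synthetase gene Acss1 (-0.21, SE 0.09, edgeR adjusted p = 0.276). Without CTRL replicate 3, Acacb passed with an edgeR adjusted p of 0.00436. The counts at an unadjusted p below 0.05 were then 8 of the 26 other oxidation genes and 4 of the 33 other peroxisomal genes, against 23.1% of all genes tested. Of 11 PPARalpha target genes outside the set, 0 passed and 1 had an unadjusted p below 0.05, and the median was -0.008. The lowest p were those of Txnip, a regulator of glucose uptake (-0.28, SE 0.11, edgeR adjusted p = 0.228), and again Acot4.

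Markers of the cell types in the tissue were read in the same libraries and the same edgeR fit. All 14 microglial markers were lower in DPAn-6 (median log2 difference -0.46), 11 with an unadjusted and 4 with an adjusted p below 0.05, and their summed level was 1170 to 1760 CPM in CTRL (median 1380) and 808 to 1150 CPM in DPAn-6 (median 1010). Of the astrocyte markers, 12 of 14 were lower, 4 with an unadjusted p below 0.05 (8460 to 13300 CPM in CTRL, with the 13300 in CTRL replicate 3, and 7710 to 9360 in DPAn-6). All 7 choroid plexus markers tested were lower, each with an unadjusted p below 0.05. The 10 of that list summed to 1750 CPM in CTRL replicate 2, 1090 in CTRL replicate 5 and 222 in CTRL replicate 3, 14.4 to 37.0 in the other CTRL mice and 8.69 to 25.8 in DPAn-6. Of the oligodendrocyte markers, 10 of 12 were higher, 6 with an unadjusted p below 0.05 (5400 to 7150 and 6370 to 7220 CPM), and of the inhibitory neuron markers, 10 of 11, 3 with an unadjusted p below 0.05 (873 to 1060 and 1120 to 1260 CPM). Of the excitatory neuron markers of the cortex, the labelled tissue, 8 of 12 were higher (9200 to 11300 and 9410 to 9900 CPM). Among the 3 excitatory markers with an unadjusted p below 0.05, 1 was higher and 2 were lower. Of the endothelial markers, 7 of 12 were lower (518 to 621 and 478 to 554 CPM). Among the 3 endothelial markers with an unadjusted p below 0.05, 1 was higher and 2 were lower. All 10 striatal markers were higher, 1 with an unadjusted p below 0.05 (361 to 907 and 328 to 716 CPM). No marker outside the microglial list had an adjusted p below 0.05 with all 12 mice, and none of these lists had a gene at 0 in every mouse.

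Without CTRL replicate 3, the markers with an adjusted p below 0.05 in edgeR numbered 9 of microglia, 3 of astrocytes, 3 of choroid plexus and 2 of oligodendrocytes. There was 1 each in the lists of endothelium (Vwf), excitatory neurons (Neurod2) and inhibitory neurons (Cck). The astrocyte markers were the glutamate transporter gene Slc1a2, the connexin gene Gjb6 and the receptor gene Fgfr3, and those of choroid plexus were Ttr, Kcnj13 and Tmem72. The counts at an unadjusted p below 0.05 were then 6 of astrocytes, 7 of excitatory neurons, 6 of inhibitory neurons and 0 of striatum (23.1% of all genes tested). With Ttr, the choroid plexus transcript, as covariate, 2 members had an unadjusted p below 0.05, Crot and Amacr, and the share of all genes tested is not given. The log2 differences in that fit were -0.25 (SE 0.12) for Acox3, -0.14 for Cpt1a, Acadm and Crat (SE 0.10 each), -0.28 (SE 0.23) for Acaa2, 0.13 (SE 0.11) for Acot7 and -0.36 (SE 0.12) for Crot, with SE above those of the fit without Ttr. The part of these cell types in the members' differences was not tested, and fewer cells of a type and less RNA per cell cannot be told apart in bulk tissue.

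Age was compared within the same mice, 8 of 14 months against 4 of 12 months, with the treatment group in the fit. No member passed at an adjusted or unadjusted p of 0.05 in edgeR (0.0% and 1.78% of genes tested passed), and none passed an adjusted p by limma-voom. The level at 14 months was lower in 30 of 39 members, with a median log2 difference of -0.05, against 0.003 for all genes tested. That count was 21 without CTRL replicate 3 and 20 without CTRL replicate 1, and the largest difference of any member was 0.19 in size. It belonged to Slc25a20, at 3.34 ± 0.11 log2 CPM at 12 months (SD, n = 4, from 3.22 to 3.46) and 3.14 ± 0.18 at 14 months (SD, n = 8, lowest 2.77, median 3.17, highest 3.33). Its log2 difference was -0.19 (SE 0.11, edgeR adjusted p = 1). The next lowest p was that of Hsd17b4, at 6.09 ± 0.08 (n = 4) and 6.01 ± 0.09 (n = 8), with -0.08 (SE 0.07, edgeR adjusted p = 1). For both genes the ages overlapped.

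The difference of the DPAn-6 effect between the ages was tested as an interaction. No member passed at an adjusted or unadjusted p of 0.05 in edgeR, where 0.00637% and 4.26% of genes tested passed. In simulated counts among 15556 genes, this test recovered only 26.3% of interactions of 1 on the log2 scale and 2.02% of those of 0.5. The term was above 0 in 28 of 39 members, with a median of 0.16, against -0.005 for all genes tested, of which 49.3% were above 0. Leaving out each mouse in turn gave 25 to 32 members above 0 and medians from 0.117 to 0.212, with the lowest median without CTRL replicate 3. All members were read in the same mice, with 2 CTRL and 2 DPAn-6 mice of 12 months, so they are not independent. These counts of members describe the libraries, and the set was not tested. At an unadjusted p below 0.05, edgeR gave 1 member when CTRL replicate 7 was left out and 1 when DPAn-6 replicate 2 was left out. The shares of all genes tested in those fits are not given. The lowest p was that of Hadh, with 4.56 and 4.75 log2 CPM in the CTRL mice and 4.34 and 4.36 in the DPAn-6 mice of 12 months. At 14 months, the 5 CTRL mice had 4.49 ± 0.17 (SD) and the 3 DPAn-6 mice 4.57 ± 0.03 (SD). DPAn-6 mice of 12 months thus lay below both CTRL mice of that age, and those of 14 months within the CTRL range. The interaction was 0.35 (SE 0.18, edgeR adjusted p = 0.905). For Acot8, CTRL mice had 2.99 and 3.16 and DPAn-6 mice 2.75 and 2.89 log2 CPM at 12 months, and 2.79 ± 0.33 (SD, n = 5) and 3.10 ± 0.29 (SD, n = 3) at 14 months. Its interaction was 0.54 (SE 0.30, edgeR adjusted p = 0.905), with overlapping groups at 14 months.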

How the data were processed

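The authors extracted total RNA from cortex, selected poly(A) RNA, made KAPA mRNA libraries, sequenced them on a HiSeq and mapped them to GRCm38 with STAR; the labels' processing notes name STAR 2.5.3a and mm10. They deposited raw counts per gene, with no normalization. Symbols, positions and lengths came from GENCODE M21 of GRCm38, which matched 50339 of 50563 identifiers. Members and lists were chosen with earlier results of these data known.

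Groups were compared with edgeR 4.0.16 in R 4.3.3 (TMM, filterByExpr, glmQLFit, glmQLFTest) over all 12 mice, adjusted by Benjamini-Hochberg over all genes tested, and each member by an exact permutation test, two-sided, with 792 assignments (smallest p 0.00126). In simulated data, the treatment test recovered 89% of changes of 1 and 47% of changes of 0.5 on the log2 scale, and smaller changes were not simulated. Statistics by mouse are given for members with an unadjusted p below 0.05, at least 8; for age and the interaction, for those with an adjusted p below 0.05, at least 2; for levels, for the 3 highest, 3 lowest and 3 most variable members; of other pathway lists, for the 2 lowest p. Other members are named as examples, with values. Nothing says whether mice shared a cage or a litter. Alternatives were DESeq2 1.42.0, limma-voom (limma 3.58.1) with and without sample weights, other scalings, filters and covariates, age subsets, the replicate block, removal of length and GC trends, and leaving out each mouse.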

Additional observations from a re-analysis of the deposited data

Results flagged for a closer look

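In 80 groups of members and treatment, 13 values lay far from the others of their group by Dixon's test, which chance flags in about 1 in 20 groups. Of these, 11 were low values of CTRL replicate 3, in log2 CPM: Acox3 at 5.40 (next CTRL mouse 5.81), Acaa1a at 4.243, Decr2 at 4.024, Ech1 at 3.723, Acot8 at 2.221, Pex5 at 4.385 (next 5.53), Acads at 1.537 (next 2.82), Echs1 at 4.442 (next 5.26), Acaa2 at 3.236 (next 4.095), Eci1 at 2.261 and Acot7 at 7.141. In DPAn-6, replicate 4 was low for Pex5 at 5.598 (next 5.77) and replicate 1 for Acsl1 at 5.921 (next 6.07).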

How the results depend on the processing

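Of the 129 counts and medians recomputed for the comparisons, 115 kept within 1.5 times the main count or within 1 SD between CTRL mice. For the medians of DPAn-6 against CTRL, that SD was 0.1541 (peroxisomal) and 0.171 (mitochondrial). Both SD exceed the size of the medians, -0.0034 and -0.0388, so a median that changed sign near 0 still counted as kept. The rule is thus no test of how stable the medians were. The adjusted count of 0 members became 2 with limma-voom sample weights, Acox3 (-0.31, adjusted p = 0.003) and Acaa2 (-0.47, adjusted p = 0.0127), and ranged from 0 to 2 when each mouse was left out. The unadjusted count of 7 was 3 without TMM, 3 without a filter, 2 after adjusting for Ttr, 2 among the 14-month mice (both higher), 11 with the length and GC trend removed and the replicate block (5 higher), and 2 to 10 when each mouse was left out. The cause of these shifts was not tested. The shares of all genes tested are given only for the main fit and the fit without CTRL replicate 3. In the other fits, a shift of the members cannot be told from a shift of all genes. The replicate numbers did not pair the mice: the correlations of same-numbered mice were 0.091, 0.016, -0.125, 0.22 and -0.067, and 0 of 5 mice correlated best with their own number. With the replicate block of numbers 1 to 5, the unadjusted count was 2, both higher (Acot1 and Acot7). The log2 differences of the 8 members with the lowest p kept their sign in all 25 alternatives. An unadjusted p below 0.05 was found in 23 of these for Acot7, 22 for Acox3 and 15 each for Cpt1a, Acadm and Acaa2. It was found in 13 for Crat, 8 for Crot and 3 for Cpt2. Of the 39 members, 3 near 0 changed sign without CTRL replicate 3 (Acadvl, Etfb and Pdk4), and the other alternatives were not listed for members beyond those 8. The exact permutation count was 4 on library totals and 5 with TMM-scaled values, and the share of all genes tested, 15.8%, was computed on library totals only. With 72 to 166 counts for Cpt2, counting error adds to its spread, and Acaa1b, at 2 to 12 counts, could not be tested.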
